A study of Capra hircus with 4 samples.

Results

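The collagen genes of the goat ovary were described here by the cell types that held their transcripts. Members were all features of the count matrices whose name, without the prefix gene-, reads COL, digits, A and digits. The rule found 44 of 28944 features and used no measured value. Ovaries were taken at estrus from 2 Du'an goats (monotocous, litter size of 1) and 2 Nubian goats (polytocous, litter size of at least 3), all about 3 years old and all given controlled internal drug release devices with 300 mg progesterone for 17 days. Each goat gave 1 library of single-nucleus RNA sequencing, in which droplets tag the transcripts of 1 nucleus with a barcode and each captured molecule with a unique molecular identifier (UMI). Breed and litter size cannot be told apart in these groups, since every goat of a breed had the same litter class.

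Collagens are trimers of chains wound into a triple helix, and the chains are named by type and number, so COL4A3 encodes the α3 chain of type IV collagen. Fibrillar collagens (types I, III, V, XI and others) form the fibrils of connective tissue, and fibril-associated collagens (FACIT) sit on their surface. Type IV collagen forms the sheet of basement membranes, from networks of the α1 and α2 chains, of the α3, α4 and α5 chains or of the α5 and α6 chains, while type VI collagen forms beaded filaments close to cells. In the ovary, a basal lamina of this kind surrounds each follicle and separates the granulosa cells from the theca, and the stroma around it holds the fibrils.

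After filtering, 44717 of 48332 nuclei with 167189054 UMIs remained, 8723 to 15848 nuclei a goat with a median of 1755 to 3296 UMIs a nucleus. Collagens took 0.138 to 0.238% of the UMIs of a goat, 340636 UMIs in all, of which COL4A3 and COL4A4 held 147823. Pairs of libraries shared 54 to 131 barcodes, at most 1.40% of the smaller library. Nuclei were grouped without the collagens and the groups named from markers of other genes, which gave 15 classes: 4 granulosa-like classes (one without a further name, mural, progenitor and cycling), and theca-like, smooth muscle-like, pericyte-like, fibroblast-like, blood endothelial-like, lymphatic endothelial-like, epithelial-like, ciliated, T or natural killer-like and macrophage-like nuclei, besides a class of 4922 nuclei that scored for both stromal and smooth muscle markers. A level below is a gene's UMIs in CPM, scaled to a common total of UMIs, in the sum of a goat's nuclei of a class, over sums of at least 20 nuclei. Values stand in the order Du'an replicates 1 and 2, then Nubian replicates 1 and 2. Fibroblast-like sums lacked Nubian replicate 2 (17 nuclei), mural granulosa-like sums lacked Du'an replicate 1 (2 nuclei), and ciliated sums came from Du'an replicate 2 and Nubian replicate 2 only. The name of the progenitor class is the least certain of the granulosa-like ones. Its granulosa markers summed to 1450 to 2051 CPM, within the 1102 to 2411 CPM of smooth muscle-like nuclei. The other granulosa-like classes had 5311 CPM or more. Stromal markers summed to 659 to 2835 CPM in the progenitor class. A class name does not exclude markers of another cell type, and this holds for smooth muscle-like and theca-like nuclei too. The part of stromal markers in the collagen levels and calls of these classes was not tested. T or natural killer-like nuclei, lymphocytes that do not build matrix, are given as the level that free RNA leaves in a droplet.

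Fibroblast-like nuclei held the most collagen for their depth. Collagens made up 1.28 ± 0.22% of their UMIs (SD, n = 3), 0.700 ± 0.130% in smooth muscle-like nuclei, 0.592 ± 0.129% in pericyte-like nuclei, 0.440 ± 0.061% in the stromal or smooth muscle class and 0.323 ± 0.036% in theca-like nuclei (n = 4 each). Granulosa-like nuclei reached 0.214 ± 0.069%, and without COL4A3 and COL4A4 0.0363 ± 0.0089%. The lowest shares were in T or natural killer-like (0.0572 ± 0.0222%) and macrophage-like nuclei (0.0537 ± 0.0332%, n = 4 each), and no sum of the fibroblast-like, smooth muscle-like, pericyte-like or stromal or smooth muscle classes fell into the range of these 2.

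The question of which cell types hold which collagens was put to a test of each class against the other 14, averaged (edgeR quasi-likelihood on the 56 sums, goat as a block, adjusted over 14668 genes, called at an adjusted p under 0.05 and a log2 fold change of at least 1 in size). Of the 44 members, 35 passed the filter on low counts. Over the 525 pairs of a member and a class, 144 were called higher and 131 lower, beside 11.4% and 6.80% of all genes and classes, and each of the 35 members was higher in at least 1 class. Passing the filter took counts in at least 1 class, so this last count describes the members and supports nothing. Among the 35, 9 members (COL4A6, COL5A3, COL6A5, COL6A6, COL9A3, COL13A1, COL15A1, COL16A1 and COL22A1) had no UMI in ciliated nuclei, some also none in epithelial-like or lymphatic endothelial-like nuclei. For these, the mean of the other classes has no finite logarithm, so no fold change is printed for them, and the fit could call almost none of their pairs lower: 1 of 135, against 23 by DESeq2 and 16 by limma. The empty class also lowers the mean that other classes are set against, which favours higher calls. The adjusted p of these 9 members are to be read with this limit. Their 35 higher calls were 36 by DESeq2, which used the same contrast, and 28 by limma, which added a small count before the logarithm.

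The mesenchymal classes led in number. Smooth muscle-like nuclei were higher for 28 of 35 members (background 9.35%) and lower for 0 (1.12%), the stromal or smooth muscle class for 25 and 0 (8.44% and 1.12%), fibroblast-like nuclei for 22 and 0 (10% and 1.55%) and pericyte-like nuclei for 21 and 0 (6.49% and 1.62%). The median log2 fold change of the 26 members with a UMI in every class was 2.40 in smooth muscle-like and 2.42 in fibroblast-like nuclei, beside -0.01 and -0.04 over the 11597 such genes tested. Blood endothelial-like nuclei had 11 higher and 3 lower (14.4% and 4.56%), lymphatic endothelial-like nuclei 8 and 4 (12.9% and 4.47%), theca-like nuclei 8 and 1 (5.47% and 4.49%), epithelial-like nuclei 6 and 11 (12% and 6.52%) and ciliated nuclei 3 and 9 (15.2% and 7.36%). Each of the 4 granulosa-like classes was higher for 3 members (8.57%), near the share over all genes. They were lower for 19 (granulosa-like, 8.01% and 9.25% of all genes higher and lower), 15 (mural, 8.09% and 11.6%), 10 (progenitor, 8.92% and 7.05%) and 21 (cycling, 9.72% and 11.2%). T or natural killer-like nuclei had 0 higher and 20 lower (19.8% and 17.6%), and macrophage-like nuclei 0 and 18 (22.9% and 12.5%). DESeq2 and limma also called 0 members higher in these immune classes, and at an unadjusted p under 0.05 edgeR had 1 higher in each of them.

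**Figure D1:**
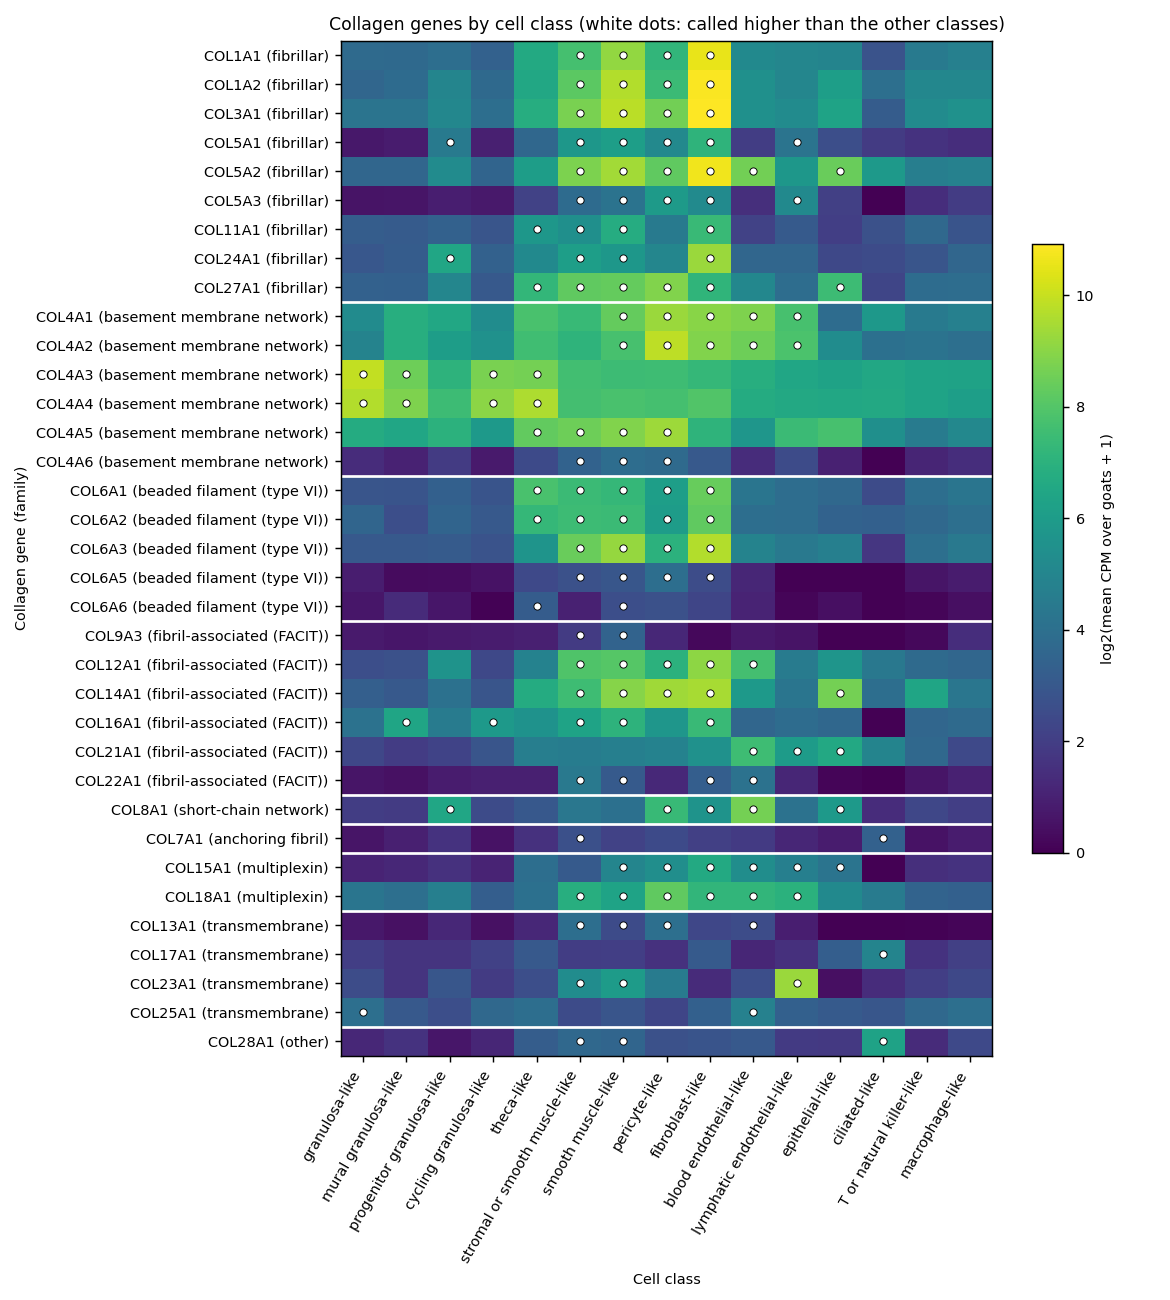
Mean level of each collagen (rows) in each cell class (columns), as log2 of CPM plus 1 averaged over goats, with a white dot where the class was called higher than the mean of the other classes. Fibroblast-like, smooth muscle-like, stromal or smooth muscle and pericyte-like columns carry most of the 144 dots, while COL4A3 and COL4A4 are brightest in granulosa-like nuclei, COL8A1 in blood endothelial-like nuclei and COL23A1 in lymphatic endothelial-like nuclei.

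**Figure D2:**
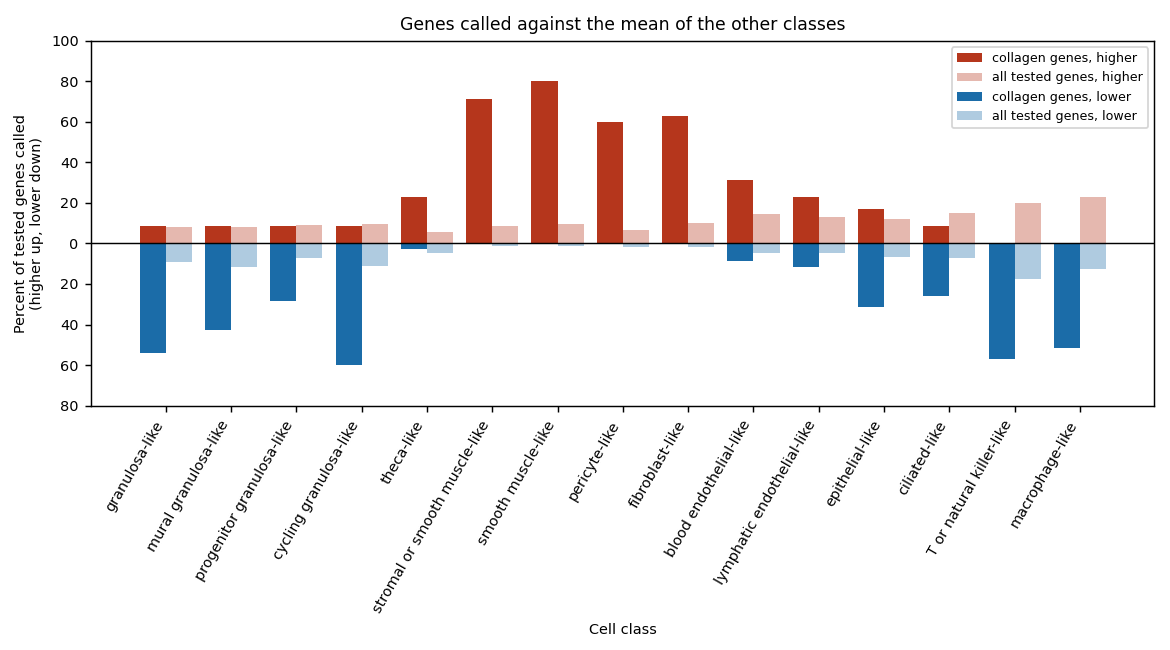
Percent of the 35 tested collagens and of all 14668 tested genes called higher (bars up) or lower (bars down) in each cell class against the mean of the others. Collagens stand above all genes for higher calls in the smooth muscle-like (28 of 35, 9.35% of all genes), stromal or smooth muscle, fibroblast-like and pericyte-like classes, and for lower calls in the granulosa-like and immune classes.

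Among type IV collagens, COL4A3 and COL4A4 had their highest means in granulosa-like nuclei, COL4A1, COL4A2 and COL4A5 in pericyte-like nuclei and COL4A6 in smooth muscle-like nuclei. The first 2 are chains of the α3, α4 and α5 network, while COL4A1 and COL4A2 are the chains of most basement membranes. In granulosa-like nuclei COL4A3 stood at 672, 1486, 1102 and 587 CPM, a log2 fold change of 2.96 ± 0.20 (SE), adjusted p = 6.95e-17. COL4A4 stood there at 643, 1175, 871 and 577 CPM (log2 fold change 2.44 ± 0.18 SE, adjusted p = 1.58e-15). All 4 goats lay above their own T or natural killer-like nuclei, by 9.44 to 37.0 times for COL4A3 and by 7.67 to 21.5 times for COL4A4. In nuclei thinned to 1000 UMIs, COL4A3 was seen in 48.5 ± 12% of granulosa-like nuclei (n = 4; 72.2% without thinning) and in 7.03 ± 5.13% of T or natural killer-like nuclei (13.4%), the median depths being 4042 and 2245 UMIs. Du'an replicate 2 was the highest for both genes in granulosa-like nuclei and among T or natural killer-like sums too, at 157 and 153 CPM.

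Both chains were also called higher in cycling and mural granulosa-like and in theca-like nuclei, but not in progenitor granulosa-like nuclei, which held 92.7, 189, 153 and 101 CPM of COL4A3 (log2 fold change 0.06 ± 0.27 SE, adjusted p = 0.992) and 162, 232, 212 and 119 CPM of COL4A4 (log2 fold change 0.21 ± 0.23 SE, adjusted p = 0.573). In cycling granulosa-like nuclei COL4A3 was at 405, 747, 175 and 374 CPM (log2 fold change 1.76 ± 0.23 SE, adjusted p = 1.57e-08) and COL4A4 at 592, 768, 305 and 434 CPM (log2 fold change 1.79 ± 0.20 SE, adjusted p = 1.68e-10). Mural granulosa-like nuclei held 702, 196 and 182 CPM of COL4A3 (log2 fold change 1.23 ± 0.27 SE, adjusted p = 0.00024) and 771, 329 and 228 CPM of COL4A4 (log2 fold change 1.46 ± 0.23 SE, adjusted p = 1.11e-06). For both genes these ranges overlapped with those of granulosa-like nuclei over the goats, but within every goat the granulosa-like level was the higher. The call of COL4A3 in mural granulosa-like nuclei was lost with DESeq2 (log2 fold change 0.97). Theca-like nuclei, steroid-producing cells outside the basal lamina, held 468, 1170.2, 779 and 614 CPM of COL4A4 (log2 fold change 1.94 ± 0.21 SE, adjusted p = 6.17e-10), a range that overlapped with that of granulosa-like nuclei. COL4A3 was at 117, 713, 336 and 412 CPM there (log2 fold change 1.24 ± 0.27 SE, adjusted p = 0.000749), and its call was lost without Nubian replicate 2 (0.81). The UMIs of COL4A3 over those of COL4A4 came to 1.02 to 1.26 in granulosa-like nuclei without a further name and to 0.25 to 0.671 in theca-like nuclei, without overlap. This order is not particular to theca-like nuclei, since COL4A3 also lay below COL4A4 in every mural and cycling sum. In Nubian replicate 1 their ratios fell into the theca-like range (4340 to 7277 UMIs in mural, 911 to 1587 in cycling nuclei). The lowest theca-like ratio, of Du'an replicate 1, rests on 32 COL4A4 UMIs. Granulosa markers summed to 862 to 1526 CPM in theca-like nuclei, with FOXL2 at 0, to 354 to 1170 CPM in T or natural killer-like nuclei and to 5724 to 7021 CPM in granulosa-like nuclei, and their part in the theca-like levels was not tested.

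COL4A1 was at 361, 427, 538 and 1193 CPM in pericyte-like nuclei, the mural cells of small vessels, a log2 fold change of 2.59 ± 0.29 (SE), adjusted p = 3.86e-10. COL4A2 was at 536, 532, 621 and 1920.2 CPM (log2 fold change 3.28 ± 0.24 SE, adjusted p = 7.99e-16), with Nubian replicate 2, a sum of 39 nuclei, far above the others for both genes. Blood endothelial-like nuclei stood at 487, 473, 392 and 419 CPM for COL4A1 (log2 fold change 2.34 ± 0.26 SE, adjusted p = 9.26e-11) and 406, 429, 388 and 247 CPM for COL4A2 (log2 fold change 2.34 ± 0.24 SE, adjusted p = 5.92e-12), with little spread between goats. Fibroblast-like, lymphatic endothelial-like and smooth muscle-like nuclei were also called higher for both chains, while granulosa-like nuclei were called lower for both. COL4A5, shared by both remaining networks, was at 1089, 483, 498 and 475 CPM in pericyte-like nuclei (log2 fold change 2.33 ± 0.17 SE, adjusted p = 3.13e-16), 845, 334, 401 and 288 CPM in smooth muscle-like nuclei (log2 fold change 1.93 ± 0.15 SE, adjusted p = 8.82e-15) and 336, 298, 304 and 317 CPM in theca-like nuclei (log2 fold change 1.22 ± 0.19 SE, adjusted p = 1.81e-06). Du'an replicate 1 was the highest goat in all 3 classes, narrowly in the last. COL4A6 was rare, with 24, 12, 9.81 and 9.71 CPM in smooth muscle-like nuclei (adjusted p = 8.98e-08, 96 UMIs) and, also called higher, 16.9, 28, 5.22 and 0 CPM in pericyte-like nuclei (adjusted p = 0.0171, 9 UMIs), where the call was lost without either Du'an goat.

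**Figure D3:**
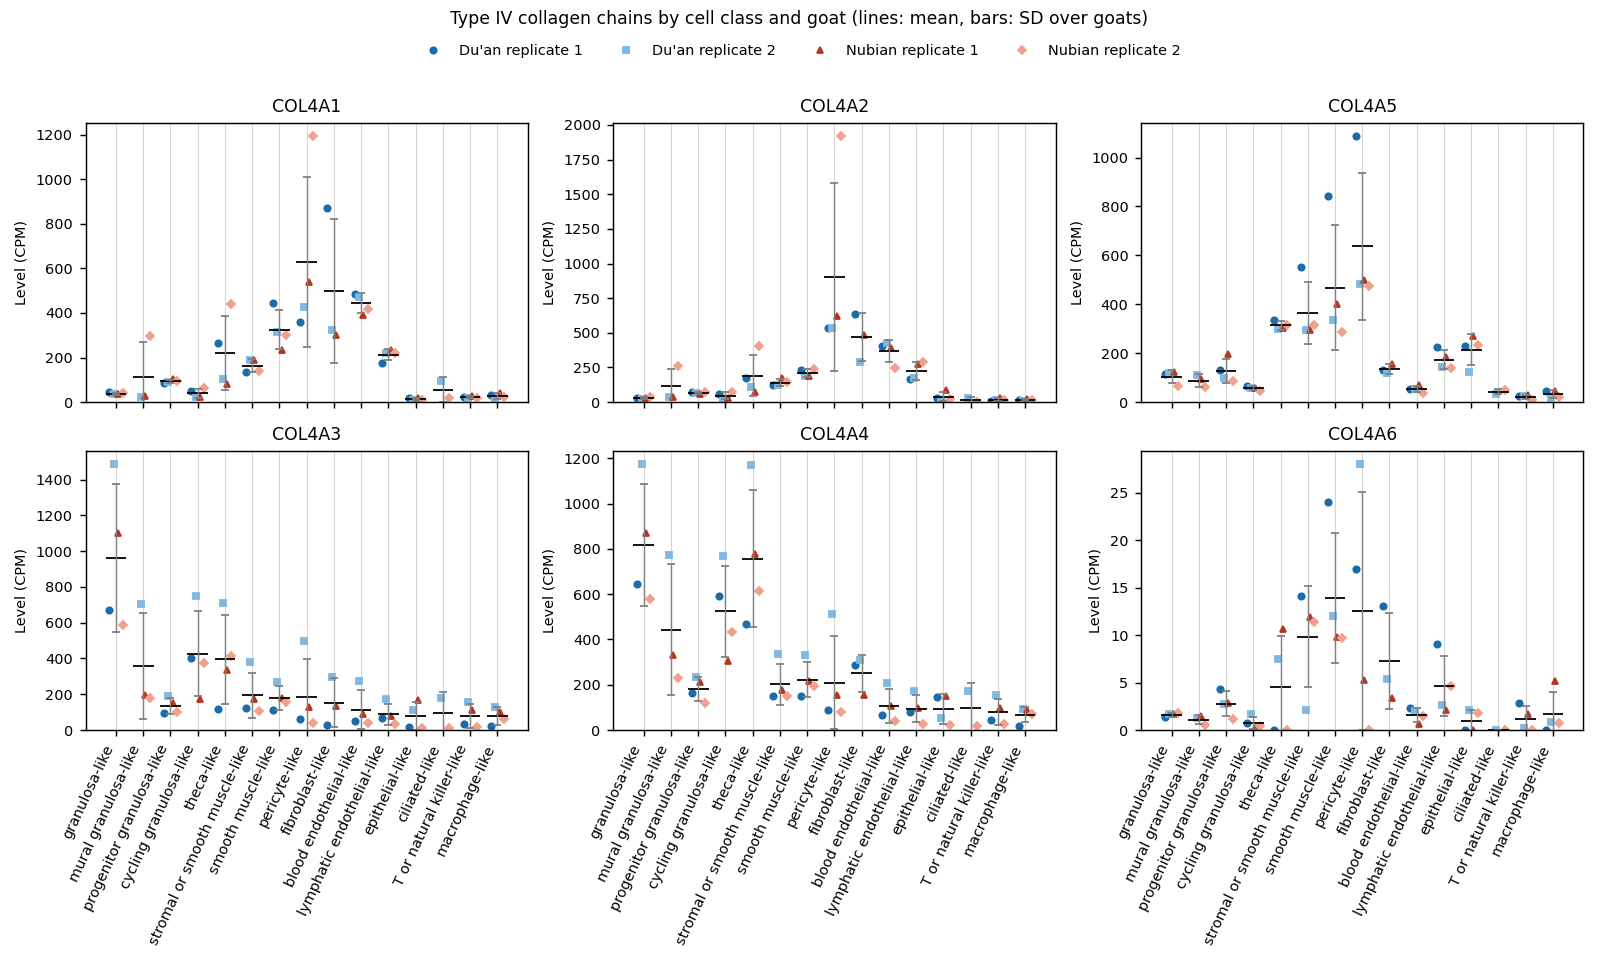
Levels of the 6 type IV collagen genes in CPM (y axis, linear, own scale in each panel) by cell class (x axis), with 1 point per goat, the mean as a line and the SD over goats as a bar. COL4A3 and COL4A4 peak in granulosa-like nuclei (means of 962 and 817 CPM) with COL4A4 nearly as high in theca-like nuclei (758 CPM), and COL4A1, COL4A2 and COL4A5 peak in pericyte-like nuclei.

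The fibrillar collagens were concentrated in fibroblast-like and smooth muscle-like nuclei. All 9 tested fibrillar members were called higher in fibroblast-like nuclei, in smooth muscle-like nuclei and in the stromal or smooth muscle class, and 7 of 9 in pericyte-like nuclei. In granulosa-like, mural and cycling nuclei 7 of 9 were called lower. COL1A1, a chain of type I collagen, was at 1095, 1487 and 1943 CPM in fibroblast-like nuclei (log2 fold change 5.16 ± 0.25 SE, adjusted p = 3.47e-22). COL1A2, its partner chain, was at 1356, 2506 and 1682 CPM there (log2 fold change 5.09 ± 0.28 SE, adjusted p = 3.06e-20). COL3A1, the chain of type III collagen, was at 1095, 1893 and 2849 CPM (log2 fold change 4.95 ± 0.25 SE, adjusted p = 2.56e-21). All 3 goats lay far above their T or natural killer-like nuclei, which held 9.91 to 44.6 CPM of COL1A1, 14.9 to 54.9 CPM of COL1A2 and 25 to 66.9 CPM of COL3A1. With nuclei thinned to 1000 UMIs, 61.2 ± 3.9% of fibroblast-like nuclei (SD, n = 3) had a COL1A1 UMI, against 2.15 ± 2.09% of T or natural killer-like nuclei (n = 4), and 71.4% and 5.08% without thinning, at median depths of 2037 and 2245 UMIs.

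Smooth muscle-like nuclei came next for these chains. They held 452, 799, 352 and 703 CPM of COL1A1 (log2 fold change 4.36 ± 0.22 SE, adjusted p = 3.42e-22), 783, 1002, 459.6 and 972 CPM of COL1A2 (log2 fold change 4.31 ± 0.25 SE, adjusted p = 5.78e-20) and 621, 1053, 614 and 1298 CPM of COL3A1 (log2 fold change 4.2 ± 0.22 SE, adjusted p = 2e-21). For COL1A1 and COL1A2 no smooth muscle-like sum reached a fibroblast-like one. For COL3A1 the ranges overlapped over the goats, but the fibroblast-like level was the higher in all 3 goats with both sums. Fibroblast markers summed to 455 to 815 CPM in smooth muscle-like nuclei and to 2862 to 5398 CPM in fibroblast-like nuclei, with 8 of 8 markers present in both, and smooth muscle markers to 5176 to 7744 and 1053 to 2558 CPM. The part of these mixtures in the collagen levels was not tested. As a mean of the shares within each goat, smooth muscle-like nuclei held more of the type I and III UMIs than any other class. They numbered 4051 against 683 fibroblast-like nuclei, and held 32.5 ± 4.4% of COL1A1, 36.2 ± 3.2% of COL1A2 and 33.2 ± 1.8% of COL3A1 (SD, n = 4). Nubian replicate 1, which gave 579 of the fibroblast-like nuclei, had the reverse order. Its fibroblast-like nuclei held 3404 against 2011 UMIs of COL1A1, 2946 against 2623 of COL1A2 and 4990 against 3504 of COL3A1.

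The minor fibrillar chains were less uniform. COL5A2 and COL5A1, chains of the type V collagen found in type I fibrils, had their highest means in fibroblast-like nuclei (1669 ± 939 CPM (SD, n = 3) and 136 ± 75 CPM (SD, n = 3)). COL5A2 was also called higher in blood endothelial-like nuclei, at 483, 456, 207 and 413 CPM (log2 fold change 2.38 ± 0.26 SE, adjusted p = 8.77e-11), and in epithelial-like nuclei, at 213, 327, 376 and 476 CPM (log2 fold change 2.15 ± 0.30 SE, adjusted p = 6.18e-08). COL5A1 was called higher in progenitor granulosa-like nuclei, at 16.2, 51.9, 12.3 and 4.14 CPM (log2 fold change 1.7 ± 0.32 SE, adjusted p = 2.3e-05), with Du'an replicate 2 well above the other goats. Without that goat the COL5A1 call in progenitor granulosa-like nuclei was lost (0.74). COL5A3 was highest in pericyte-like nuclei, at 45.1, 56, 41.8 and 101 CPM (adjusted p = 9.62e-10, 42 UMIs), and also called higher in lymphatic endothelial-like nuclei, at 69.9, 29.5, 31.9 and 11.6 CPM (adjusted p = 1.37e-13, 177 UMIs). T or natural killer-like nuclei held at most 2.90 CPM of it, below every goat of both classes. COL11A1, a chain of type XI collagen, was called higher in fibroblast-like (168 ± 105 CPM (SD, n = 3)), smooth muscle-like (106 ± 43.2 CPM (SD, n = 4)), theca-like (53.3 ± 21.4 CPM (SD, n = 4)) and stromal or smooth muscle nuclei. Of the 2 fibroblast-like clusters, that of 600 nuclei held 533 COL11A1 UMIs (290 CPM), and that of 83 nuclei 4 (16.4 CPM). Nubian replicate 1 gave 569 nuclei and 496 COL11A1 UMIs of the first, so cluster and goat cannot be told apart for this level.

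COL27A1, the chain of fibrillar type XXVII, was highest in pericyte-like nuclei, at 553, 539, 378 and 354 CPM (log2 fold change 3.65 ± 0.26 SE, adjusted p = 8.99e-17), with a UMI in 41.2 ± 10.8% of thinned nuclei (SD, n = 3) against 1.97 ± 2.30% of T or natural killer-like nuclei (53.7% over 4 goats and 3.36% without thinning, median depths of 1385 and 2245 UMIs). Smooth muscle-like (321 ± 77 CPM (SD, n = 4)) and stromal or smooth muscle nuclei (303 ± 75 CPM (SD, n = 4)) followed. The 3 classes overlapped over the goats, but pericyte-like nuclei were the highest class in all 4. COL24A1, the chain of type XXIV, was at 209, 119 and 1523 CPM in fibroblast-like nuclei (log2 fold change 4.61 ± 0.33 SE, adjusted p = 2.26e-16), where Nubian replicate 1 stood far above both Du'an goats. That goat gave 569 of the 600 nuclei of one of the 2 fibroblast-like clusters, with COL24A1 at 1552 CPM in them. That cluster held 2741 COL24A1 UMIs, 2667 of them from that goat, and the other cluster, of 83 nuclei, held 3. Du'an replicate 2 stood at 119 CPM over its 59 fibroblast-like nuclei, but at 7.34 CPM (1 UMI) in its 44 nuclei of the other cluster. Its COL24A1 thus also lay mainly in the first cluster, and a difference between goats within a cluster was not tested. Progenitor granulosa-like nuclei held COL24A1 at 27.7, 133, 156 and 35.6 CPM (log2 fold change 2.5 ± 0.29 SE, adjusted p = 4.63e-10), all above the 0 to 18.9 CPM of T or natural killer-like nuclei.

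**Figure D4:**
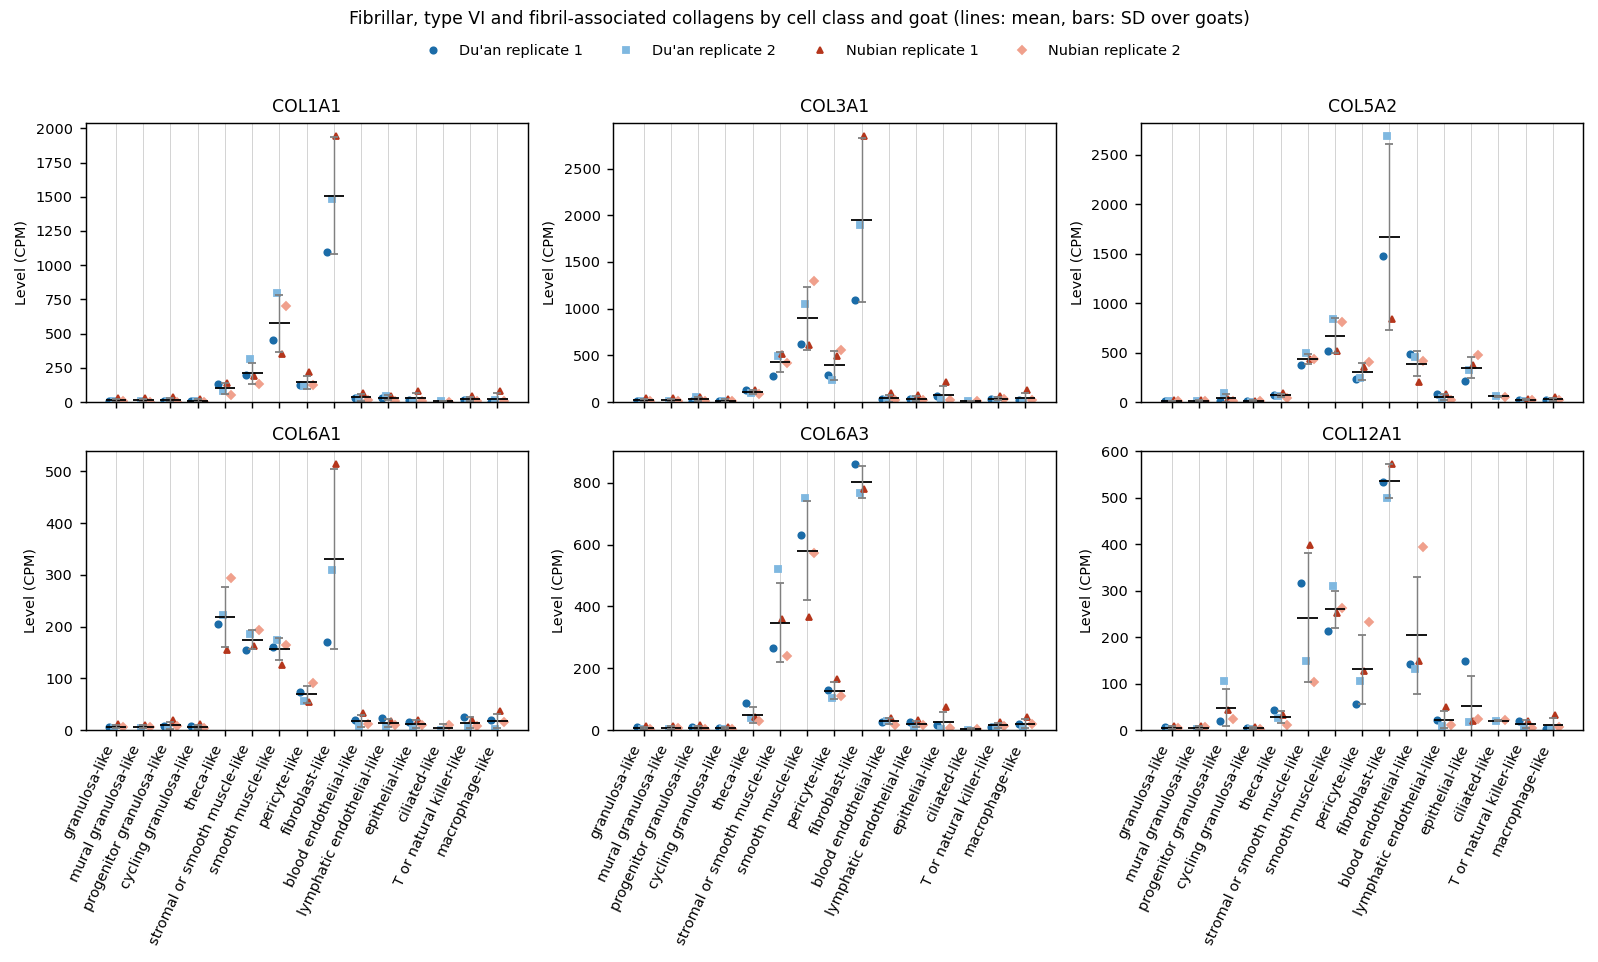
Levels of COL1A1, COL3A1, COL5A2, COL6A1, COL6A3 and COL12A1 in CPM (y axis, linear, own scale in each panel) by cell class, with 1 point per goat, the mean as a line and the SD over goats as a bar. All 6 are highest in fibroblast-like nuclei, and COL6A1 alone has theca-like nuclei (219 CPM) as the next class.

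Type VI collagen was led by the same classes, with theca-like nuclei added. All 5 tested members were called higher in smooth muscle-like nuclei. COL6A3 was at 860.3, 765 and 779 CPM in fibroblast-like nuclei (log2 fold change 4.8 ± 0.24 SE, adjusted p = 1.29e-21), 631, 749, 366 and 574 CPM in smooth muscle-like nuclei (log2 fold change 4.65 ± 0.19 SE, adjusted p = 2.95e-25) and 266, 522, 359 and 238 CPM in the stromal or smooth muscle class (log2 fold change 3.7 ± 0.21 SE, adjusted p = 1.04e-19). Every fibroblast-like sum lay above every smooth muscle-like sum. COL6A1 and COL6A2, the chains that pair with it, were called higher in theca-like nuclei, at 205, 223, 155 and 294 CPM (log2 fold change 3.25 ± 0.26 SE, adjusted p = 2.21e-14) and 161, 125, 69.3 and 267 CPM (log2 fold change 2.6 ± 0.26 SE, adjusted p = 3.92e-11), whereas COL6A3 was at 87.7, 37.5, 42.7 and 30.5 CPM there (log2 fold change 0.34 ± 0.42 SE, adjusted p = 0.706). For COL6A1 the theca-like sums overlapped with those of fibroblast-like nuclei (169, 309 and 514 CPM). In thinned nuclei COL6A1 was seen in 19.7 ± 5.0% of theca-like nuclei (n = 4) against 1.61 ± 1.24% of T or natural killer-like nuclei, and in 34.8% and 3.41% without thinning.

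COL6A5 and COL6A6, alternative chains of type VI collagen, were rare. COL6A5 was called higher in pericyte-like nuclei, at 0, 35, 13 and 10.1 CPM (adjusted p = 0.00019, 11 UMIs), and in the stromal or smooth muscle class, at 8.30, 2.07, 2.97 and 8.65 CPM (adjusted p = 8.1e-05, 44 UMIs). COL6A6 was called higher in theca-like nuclei on 8 UMIs (0, 3, 4 and 1), at 0, 7.50, 21.3 and 3.81 CPM (adjusted p = 0.00298), a call that was lost without Nubian replicate 1. At these depths 1 goat decides whether such a level is above 0.

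The fibril-associated collagens were shared between fibroblast-like, muscle, vessel and surface classes. COL12A1, which lies along type I fibrils, was called higher in 5 classes, with 534, 499 and 572 CPM in fibroblast-like nuclei (log2 fold change 3.99 ± 0.34 SE, adjusted p = 1.05e-13) and 143, 131, 149 and 393 CPM in blood endothelial-like nuclei (log2 fold change 2.77 ± 0.29 SE, adjusted p = 1.47e-11), where Nubian replicate 2 was the highest. COL14A1, another such chain, was at 853, 357, 225 and 157 CPM in epithelial-like nuclei (log2 fold change 2.75 ± 0.32 SE, adjusted p = 6.78e-10), with Du'an replicate 1, a sum of 24 nuclei, far above the others. Its levels in fibroblast-like (731 ± 217 CPM (SD, n = 3)), pericyte-like (659.9 ± 320.1 CPM (SD, n = 4)) and smooth muscle-like nuclei (493 ± 126 CPM (SD, n = 4)) overlapped. T or natural killer-like nuclei held COL14A1 at 98.6, 106, 95.3 and 38.7 CPM, above both Du'an macrophage-like sums (2.35, 4.08, 40.04 and 26.9), so they are no measure of free RNA for this gene.

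COL16A1 was the one fibril-associated member called higher in granulosa-like classes. It was at 83.7, 97.5 and 76.6 CPM in mural granulosa-like nuclei, the estrogen-producing cells of the follicle wall (adjusted p = 2.93e-07), and at 22.7, 47.9, 112 and 48.5 CPM in cycling granulosa-like nuclei (adjusted p = 0.00027), against 17.4, 11.9, 12.2 and 24.8 CPM in granulosa-like nuclei without a further name. No mural sum overlapped with a granulosa-like one. COL16A1 had no UMI in ciliated nuclei, which favours higher calls. In cycling nuclei both Du'an goats lay below the mean CPM of their other classes (49.9 and 50.7) and both Nubian goats above theirs (54 and 31.3). The mean of Nubian replicate 2 lacks the fibroblast-like class, and the part of this in the split was not tested. The 2 cycling clusters differed: the cluster of 948 nuclei held COL16A1 at 119, 120.0 and 108 CPM in the 3 goats with at least 20 nuclei, and the cluster of 930 nuclei at 22.7, 27.8, 45.8 and 38.6 CPM. Fibroblast-like (169 ± 32.7 CPM (SD, n = 3)) and smooth muscle-like nuclei (135 ± 29.8 CPM (SD, n = 4)) had the highest means of this gene.

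COL21A1 was a collagen of blood endothelial-like nuclei, at 272, 104, 239.7 and 130.1 CPM (log2 fold change 3.5 ± 0.23 SE, adjusted p = 1.48e-18), and of epithelial-like nuclei, at 49.2, 36.6, 113 and 182 CPM (log2 fold change 2.71 ± 0.31 SE, adjusted p = 3.05e-10), where the Nubian goats were above the Du'an goats. The sums of these classes overlapped, and T or natural killer-like nuclei held 6.94 to 16.3 CPM. COL21A1 was called higher in 3 classes in all. Of the lymphatic endothelial-like clusters, that of 1560 nuclei held it at 70.7 CPM (341 UMIs) and that of 184 nuclei at 10.3 CPM (2 UMIs). The gene is thus not particular to blood among the endothelial-like nuclei. COL22A1, known from tissue junctions, was called higher in the stromal or smooth muscle class, at 22, 10.4, 23.7 and 24.1 CPM (adjusted p = 1.01e-10, 127 UMIs), and in blood endothelial-like nuclei, at 44, 9.22, 9.93 and 2.86 CPM (adjusted p = 8.77e-11, 93 UMIs), with Du'an replicate 1 the highest of the endothelial sums. COL9A3, a chain of type IX collagen of cartilage, was highest in smooth muscle-like nuclei, at 9.02, 20.04, 5.26 and 6.93 CPM (adjusted p = 1.46e-08, 59 UMIs), and every goat lay above its own stromal or smooth muscle sum (4.33, 2.07, 0 and 4.55).

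COL8A1 and COL23A1 had their highest levels in endothelial-like nuclei. COL8A1, which forms short-chain networks under endothelia, was at 423, 522, 266 and 403 CPM in blood endothelial-like nuclei, a log2 fold change of 5.26 ± 0.21 (SE), adjusted p = 1.59e-27. The next class, pericyte-like nuclei, reached 197, 182, 112 and 172 CPM (log2 fold change 3.56 ± 0.34 SE, adjusted p = 2.32e-12) and overlapped in no goat, and T or natural killer-like nuclei held 1.98 to 6.87 CPM. COL8A1 was also called higher in progenitor granulosa-like nuclei, at 45.8, 150.2, 122 and 31 CPM (log2 fold change 2.75 ± 0.24 SE, adjusted p = 9.05e-14). Of all COL8A1 UMIs, blood endothelial-like nuclei held 50.3 ± 16.8% and progenitor granulosa-like nuclei 23.8 ± 5.8% (SD, n = 4). In the progenitor class, 76 nuclei of Nubian replicate 1 formed a cluster of their own with COL8A1 at 691 CPM, while the remaining 536 nuclei of that goat stood at 45.9 CPM.

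The 2 blood endothelial-like clusters differed in several collagens. In the cluster of 473 nuclei led by BMX, DKK2 and GJA5, genes known from arterial endothelium, COL8A1 stood at 963, 1358, 509 and 707 CPM, against 76.1, 65.7, 67.4 and 147 CPM in the cluster of 1362 nuclei. COL5A2 followed the same order, with 1137, 1224, 348 and 819 CPM against 62.3, 37.2, 91.4 and 71.1 CPM, and COL18A1 with 178, 273, 215 and 297 CPM against 84.8, 74.4, 91.4 and 63.2 CPM. COL4A1 had the reverse order, with 129.8, 402, 107 and 375 CPM against 717, 511, 624 and 455 CPM. None of these 4 genes overlapped between the clusters, and they were given as a description with no test. They were chosen after their values were seen, and the share of all genes without overlap was not taken. The lack of overlap is thus not read as a result about collagens. The cluster of 1362 nuclei also held COL15A1 at 113, 71.2, 46.9 and 10.5 CPM, against 1.94, 1.45, 0 and 31.3 CPM, an order that Nubian replicate 2 turned around.

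COL15A1 and COL18A1, the multiplexins of basement membrane zones, were called higher in 6 classes each. COL18A1, the source of endostatin, was highest in pericyte-like nuclei, at 378, 217, 298 and 323 CPM (log2 fold change 3.11 ± 0.26 SE, adjusted p = 4.59e-14), and stood at 139.7, 117, 124 and 123 CPM in lymphatic endothelial-like nuclei (log2 fold change 2.0 ± 0.23 SE, adjusted p = 4.63e-10), with no overlap between them. COL15A1 had its highest mean in fibroblast-like nuclei, at 0, 97.7 and 197 CPM (adjusted p = 4.27e-13), where Du'an replicate 1 had none, and its second in pericyte-like nuclei, at 50.8, 56, 28.7 and 30.3 CPM (adjusted p = 0.000651). The fibroblast-like cluster of 600 nuclei held 359 COL15A1 UMIs (195 CPM), 344 of them from Nubian replicate 1, and that of 83 nuclei 4 (16.4 CPM). A difference between goats within a cluster was not tested. COL15A1 was at 69.8, 46.6, 25.8 and 20.01 CPM in blood endothelial-like nuclei (adjusted p = 7.62e-10), 23.3, 27.5, 19.4 and 32.4 CPM in lymphatic endothelial-like nuclei (adjusted p = 2.54e-05) and 0, 34.4, 9.39 and 25.4 CPM in epithelial-like nuclei (adjusted p = 0.000322). The blood and lymphatic endothelial-like ranges lay above the 0.858 to 2.90 CPM of T or natural killer-like nuclei in every goat, while the epithelial-like range began at 0, and its call was lost without Nubian replicate 2 and with limma.

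COL23A1, a transmembrane collagen, had the largest share of its UMIs in 1 class among the 35. It was at 640.3, 871, 411 and 602 CPM in lymphatic endothelial-like nuclei (log2 fold change 6.83 ± 0.22 SE, adjusted p = 2.33e-31), and the next class, smooth muscle-like nuclei, reached 80.1, 76.2, 34.7 and 58.2 CPM (log2 fold change 3.1 ± 0.31 SE, adjusted p = 7.42e-12). Lymphatic endothelial-like nuclei held 67.7 ± 12.7% of its UMIs (SD, n = 4, range of 55.0 to 85.1%) and made up 3.86 ± 1.57% of a goat's nuclei. In thinned nuclei 29.3 ± 3.8% had a COL23A1 UMI, against 0.188 ± 0.260% of T or natural killer-like nuclei (n = 4 each), and 37.4% and 0.840% without thinning. The level came from the cluster of 1560 nuclei (651, 904, 429.9 and 633 CPM), while in the cluster of 184 nuclei, led by CCL21, 3 goats had at least 20 nuclei and stood at 0, 9.50 and 0 CPM.

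The other transmembrane members were less abundant. COL13A1, found at cell adhesion sites, was called higher in pericyte-like nuclei, at 11.3, 21, 7.83 and 20.2 CPM (adjusted p = 0.000248, 10 UMIs), and in the stromal or smooth muscle class, at 13.7, 12.4, 26.7 and 5.47 CPM (adjusted p = 1.04e-08, 65 UMIs), and these overlapped. COL25A1 was called higher in granulosa-like nuclei, at 12.7, 13.9, 14.3 and 18.4 CPM (log2 fold change 1.05 ± 0.23 SE, adjusted p = 0.000261), and its highest mean was in blood endothelial-like nuclei (27.1 ± 8.01 CPM (SD, n = 4)). Its levels in T or natural killer-like nuclei (2.90, 4.04, 18.9 and 21.8) overlapped with the granulosa-like ones. Thinned granulosa-like and T or natural killer-like nuclei with a UMI made up 1.31 ± 0.33% and 0.881 ± 1.05% (SD, n = 4 each, and 4.46% and 2.79% without thinning). The 2 T or natural killer-like clusters held it at 4.14 CPM (2282 nuclei, 24 UMIs) and 41.3 CPM (214 nuclei, 38 UMIs). They are thus no measure of free RNA for this gene, and the granulosa-like level was not told apart from background. The call was lost with DESeq2 (0.84) and limma (adjusted p = 0.143) and without Du'an replicate 2 (0.93). COL17A1, the collagen of hemidesmosomes, was called higher in ciliated nuclei, at 12.7 and 45.9 CPM in the 2 goats (log2 fold change 5.08 ± 0.55 SE, adjusted p = 4.55e-11, 24 UMIs). COL28A1 was at 44.4 and 112 CPM there (log2 fold change 4.55 ± 0.40 SE, adjusted p = 9.17e-14, 63 UMIs) and COL7A1, the chain of anchoring fibrils, at 3.17 and 16.1 CPM (log2 fold change 3.13 ± 0.74 SE, adjusted p = 0.000811, 8 UMIs). Nubian replicate 2 was the higher goat for all 3, and the COL7A1 call was lost without it (0.95).

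**Figure D5:**
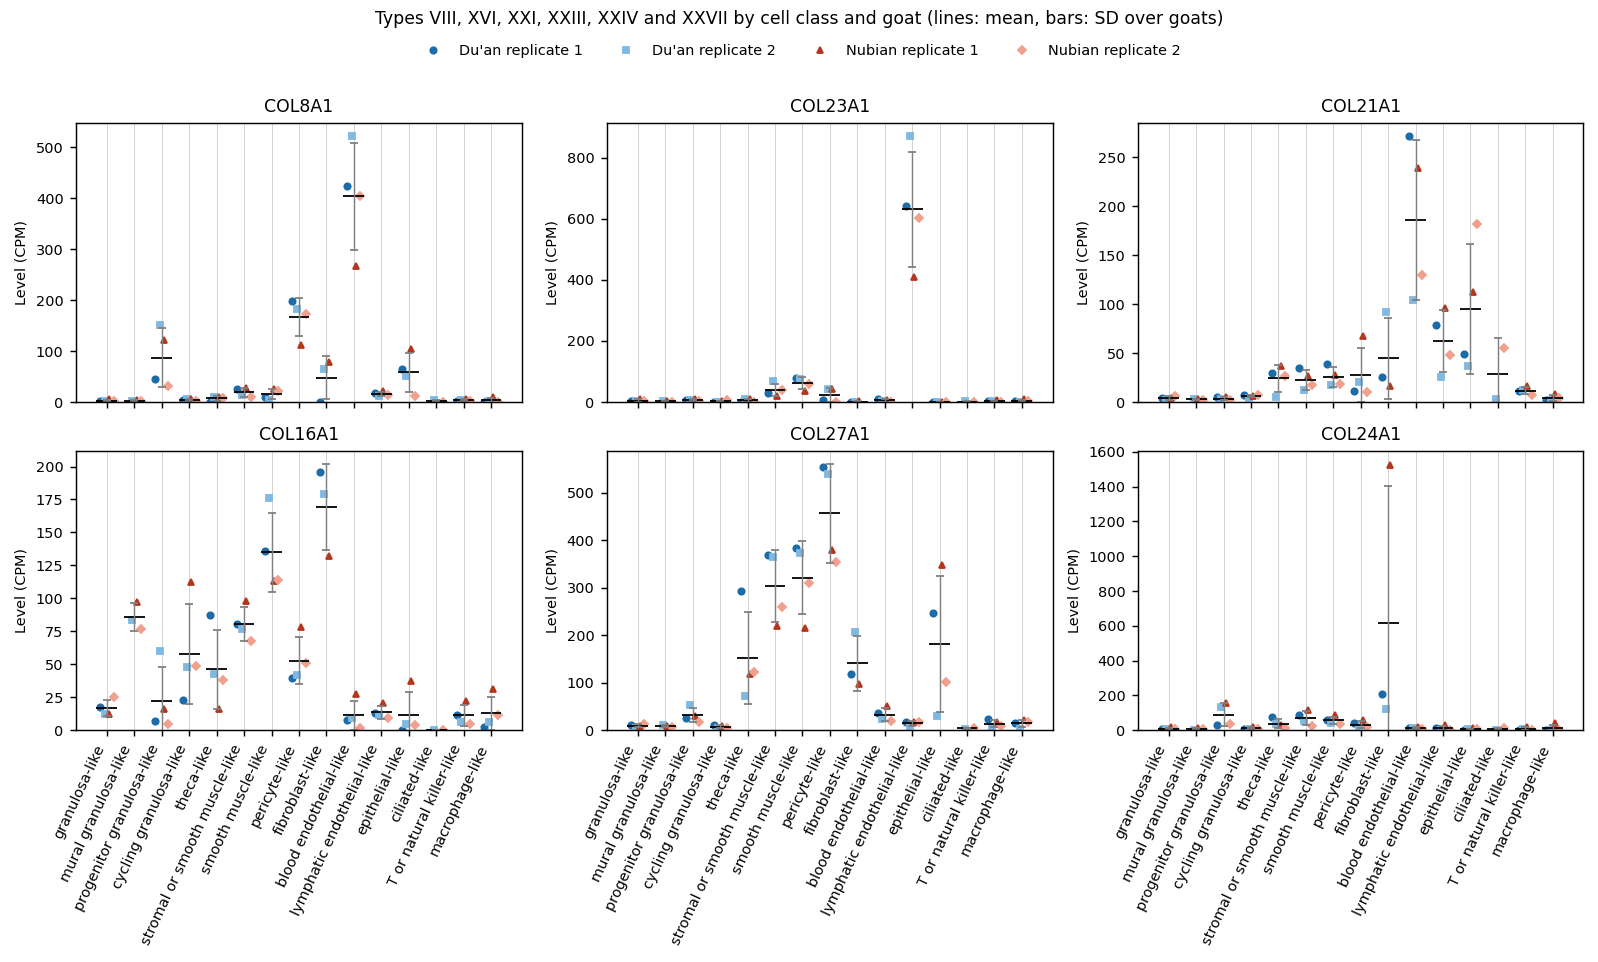
Levels of COL8A1, COL23A1, COL21A1, COL16A1, COL27A1 and COL24A1 in CPM (y axis, linear, own scale in each panel) by cell class, with 1 point per goat, the mean as a line and the SD over goats as a bar. COL8A1 peaks in blood endothelial-like nuclei (404 CPM), COL23A1 in lymphatic endothelial-like nuclei (631 CPM) and COL27A1 in pericyte-like nuclei (456 CPM), while the COL24A1 mean of fibroblast-like nuclei rests on Nubian replicate 1.

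The remaining 9 members did not pass the filter. COL2A1, the main collagen of cartilage, had 4 UMIs in all kept nuclei, COL9A1 31, COL26A1 35, COL19A1 42, COL8A2 43, COL11A2 115 and COL9A2 120. Just inside the filter stood COL6A6 with 138 and COL9A3 with 198 UMIs. COL10A1, the collagen of growth plate cartilage, and COL20A1 had 0 UMIs in 44717 nuclei, a count that limits nuclei showing a UMI to 0.00671% (counting error only) and sets no limit on nuclei that express these genes at this depth. The 7 others were fitted only without the filter, where 7 further pairs were called higher, all among them. COL8A2, the partner chain of COL8A1, was highest in lymphatic endothelial-like nuclei in all 4 goats, at 1.29, 2.69, 6.47 and 4.63 CPM (1, 4, 15 and 2 UMIs).

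The class with the highest level of a gene was not always the class that held most of its UMIs. Fibroblast-like nuclei had the highest mean level for 14 of the 35 tested members, pericyte-like nuclei for 8, ciliated and blood endothelial-like nuclei for 3 each, granulosa-like and smooth muscle-like nuclei for 2 each, and theca-like, stromal or smooth muscle and lymphatic endothelial-like nuclei for 1 each. In 18 members the class with the highest mean was the highest in every goat that had it. Only COL23A1, COL4A3 (55.4 ± 9.5% in granulosa-like nuclei) and COL8A1 had over 50% of their UMIs in 1 class, among the 35 tested. COL21A1 had 36.8 ± 17.4% in blood endothelial-like nuclei, COL24A1 29.98 ± 15.1% in progenitor granulosa-like nuclei and COL5A3 29.99 ± 16.5% in lymphatic endothelial-like nuclei (SD, n = 4).

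Some members followed each other over the 56 sums, both within a type and between types. The correlation of log2 levels (CPM plus 1) was highest for COL1A2 and COL3A1 (Pearson's r = 0.970), then for COL1A1 and COL1A2 (0.959) and COL1A1 and COL3A1 (0.957) and COL3A1 and COL6A3 (0.945), beside a median of 0.40 over 595 pairs. The sums share goats and depth, so these are descriptions with no test. Of the pairs that are next to each other in the RefSeq gene table (assembly ARS1.2), COL6A1 and COL6A2 reached 0.938, COL4A1 and COL4A2 0.932, COL4A3 and COL4A4 0.891, COL3A1 and COL5A2 0.805, and COL6A5 and COL6A6 0.370. The last pair had 208 and 138 UMIs in all.

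Other genes of collagen making were followed in 4 lists. In fibroblast-like nuclei 9 of 19 tested genes of procollagen modification and folding were higher and 0 lower, 11 of 15 of processing and cross-linking were higher and 1 lower, 6 of 11 collagen receptors were higher and 1 lower, and 6 of 9 genes of collagen degradation were higher and 0 lower, beside 10% and 1.55% of all genes. Over the list genes with a UMI in every class (18, 11, 9 and 6), the median log2 fold changes were 1.10, 1.73, 0.13 and 1.38, beside -0.04 over all such genes. ADAMTS2, which removes the amino propeptide of fibrillar procollagens, stood at 177 ± 93.7 CPM (SD, n = 3, adjusted p = 1.11e-14) and PCOLCE, an enhancer of the carboxyl propeptide's removal, at 77.9 ± 15.4 CPM (adjusted p = 3.22e-14), both without a UMI in some class. ADAMTS2 was also called higher in macrophage-like nuclei, at 123 ± 50.1 CPM (n = 4). The same call was made in smooth muscle-like (88.9 ± 22.2 CPM), pericyte-like (56.1 ± 32.5 CPM) and stromal or smooth muscle nuclei (31.5 ± 11.3 CPM, SD, n = 4 each). PCOLCE was also called higher in smooth muscle-like nuclei, at 32.8 ± 10.8 CPM (SD, n = 4), so these genes are not particular to fibroblast-like nuclei. CREB3L1, a transcription factor of collagen secretion, had a log2 fold change of 2.65 ± 0.41 (SE, adjusted p = 1.59e-06) at a mean of 50.4 CPM. FKBP10, a procollagen chaperone, had a log2 fold change of 2.51 ± 0.37 (SE, adjusted p = 4.68e-07) at a mean of 22.2 CPM. Both were among the genes also called higher in smooth muscle-like nuclei (log2 fold changes of 1.77 and 1.73). CREB3L1 was also called higher in epithelial-like (2.26), theca-like (1.63) and T or natural killer-like nuclei (1.39), so it is not particular to the mesenchymal classes. The fibroblast-like sums of FKBP10 ranged from 0 to 39.4 CPM over the goats.

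In granulosa-like nuclei the processing list was split, with 3 of 15 genes higher and 6 lower (8.01% and 9.25% of all genes) and a median log2 fold change of -1.73 over the 11 genes with a UMI in every class, beside 0.08 over all such genes. TLL2, a tolloid-like proteinase, was higher by 3.16 ± 0.16 (SE, adjusted p = 1.86e-21) and PCOLCE2 by 1.80 ± 0.24 (adjusted p = 2.35e-08). TLL2 was also called higher in mural (2.55) and cycling (3.00) granulosa-like nuclei, and PCOLCE2 in mural (1.48) and progenitor ones (2.41). LOXL2 and LOXL1, enzymes of collagen cross-linking, were lower by 3.12 and 2.98 on the log2 scale (SE 0.54 and 0.51, adjusted p = 6.38e-06 and 4.02e-06). Their means there, 0.678 and 0.345 CPM, were near the floor. Lymphatic endothelial-like nuclei were higher for 6 of 9 degradation genes and lower for 0 (12.9% and 4.47% of all genes). TLL1, another tolloid-like proteinase, was higher there by 6.88 ± 0.17 (adjusted p = 5.40e-36) and PXDN, the peroxidase that cross-links type IV collagen, by 4.21 ± 0.21 (adjusted p = 2.10e-23). TLL1 was also higher in blood endothelial-like nuclei (log2 fold change 4.75 ± 0.19 SE, adjusted p = 2.28e-27). PXDN was also higher in theca-like nuclei, at 259 ± 131 CPM (SD, n = 4, log2 fold change 3.68 ± 0.27, adjusted p = 1.65e-15). In mural granulosa-like nuclei COLGALT2, which adds galactose to collagen hydroxylysines, was higher by 3.02 ± 0.27 (adjusted p = 6.15e-13) and ADAMTS3, a procollagen proteinase, by 2.76 ± 0.25 (adjusted p = 5.20e-13). COLGALT2 was also called higher in cycling granulosa-like (1.72) and pericyte-like nuclei (1.40).

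No collagen was called between the breeds. Within the 12 classes with both goats of each breed, 260 pairs of a member and a class were tested (edgeR, adjusted over all genes of a class), 0 were called, as were 0% of the 103095 tests over all genes, and the smallest adjusted p of a member was 0.162. At an unadjusted p under 0.05 there were 28 (10.8%, beside 4.36% over all genes). DESeq2 called 0 member pairs, beside 363 over all genes, with 27 member pairs at that p. The 3 pairs with the smallest unadjusted p are given with their Nubian minus Du'an log2 fold changes. COL14A1 in macrophage-like nuclei was at 2.35, 4.08, 40.04 and 26.9 CPM, a difference of 3.07 ± 0.57 (SE, adjusted p = 0.510 by edgeR). COL28A1 in smooth muscle-like nuclei was at 17, 18.7, 3.33 and 4.16 CPM, a difference of -2.25 ± 0.43 (SE, adjusted p = 0.777 by edgeR). COL25A1 in T or natural killer-like nuclei was at 2.90, 4.04, 18.9 and 21.8 CPM, a difference of 2.41 ± 0.54 (SE, adjusted p = 0.162 by edgeR). The 2 clusters of that class held COL25A1 at 4.14 and 41.3 CPM, and the part of their mix in each goat was not tested. The goats of the breeds did not overlap in any of these pairs, but the pairs were picked by their p, so this supports nothing. Among all tested members, 8 of 16 in macrophage-like, 10 of 27 in smooth muscle-like and 7 of 20 in T or natural killer-like nuclei had no overlap. The share of all genes without overlap was not taken, so these counts are not read as a result about collagens. The 3 pairs rest on 1, 10, 39 and 39 UMIs, 17, 14, 19 and 3 UMIs and 1, 17, 22 and 22 UMIs, and fail the correction. With 2 goats against 2, these p-values measure the spread between goats of a breed, and the number of goats limits what they can show.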

How the data were processed

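Nuclei of 4 goat ovaries were sequenced with a droplet 3′ kit, and the deposited matrices hold UMI counts per gene and nucleus, which the authors made with Cell Ranger (5.0.0 per the labels); whether intronic reads were counted is not given in the sources used here. Nuclei over 2 SD from their library's mean UMIs or genes detected, or over 20% mitochondrial UMIs, were removed. Scrublet marked 0.321% of deposited nuclei, 154 of them in Du'an replicate 2, and these were removed, but at that share it is taken not to have worked, so other doublets remain. With scanpy 1.11.5, 2000 variable genes without collagens gave 29 clusters (Leiden, resolution 0.8), named by marker lists, with 6707 nuclei left unnamed. Members and lists were chosen with earlier results of these data known, and nuclei were grouped by other genes of the same nuclei.

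UMIs were summed by goat and class. Each class was set against the unweighted mean of the others with edgeR 4.0.16 (R 4.3.3; quasi-likelihood, TMM, filterByExpr, goat as a block, Benjamini-Hochberg adjustment over all genes), and breeds within classes were compared by the same test without a block. DESeq2 1.42.0 and limma 3.58.1 (added after seeing the data) were alternatives. SE is the fold change divided by the root of F. Folds are not printed for genes with a class without UMIs. Per-goat values are given for up to 4 members called higher in each class, by fold change, and for the type IV pairs, and for list genes up to 3 in each direction. Further pairs were chosen after their values were seen. Shares of nuclei with a UMI were taken after thinning to 1000 UMIs (not reached by 3099 of 15921 nuclei of the Du'an and 4899 of 22089 of the Nubian goats), and stromal or smooth muscle nuclei kept 1886 of 4922. The tests were checked on simulated counts. Same-numbered goats are different animals, and their deviations correlated at -0.22 to 0.22 over 12 classes, so the numbers do not pair them.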

Additional observations from a re-analysis of the deposited data

Results flagged for a closer look

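In 5 of 48 groups of 4 goats checked, 1 goat stood apart from the rest, where chance gives about 1 in 20. COL22A1 in the stromal or smooth muscle class was at 10.4 CPM in Du'an replicate 2, below the other goats (22, 10.4, 23.7 and 24.1 CPM in all 4). COL4A2 in pericyte-like nuclei was at 1920.2 CPM in Nubian replicate 2, a sum of 39 nuclei, and COL4A5 there at 1089 CPM in Du'an replicate 1, a sum of 109 nuclei. COL4A6 in smooth muscle-like nuclei was at 24 CPM in Du'an replicate 1. COL24A1 over all nuclei was at 79.8 CPM in Nubian replicate 1, the goat that gave 579 of the 683 fibroblast-like nuclei.

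For 2 members the breeds lay on opposite sides of the mean CPM of their other classes, and this difference was not tested. The classes in this mean differ between goats. The fibroblast-like sum, the highest class for both genes (means of 1669 CPM for COL5A2 and 169 CPM for COL16A1), is missing for Nubian replicate 2. Its part in the split was not tested. COL16A1 in cycling granulosa-like nuclei (mean of 57.8 CPM) was at 22.7 and 47.9 CPM in the Du'an goats, below the mean of their other classes (49.9 and 50.7 CPM), and at 112 and 48.5 CPM in the Nubian goats, above theirs (54 and 31.3 CPM). COL5A2 in epithelial-like nuclei (mean of 348 CPM) was at 213 and 327 CPM against 276 and 358 CPM in the Du'an goats, and at 376 and 476 CPM against 206 and 175 CPM in the Nubian goats.

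Among nuclei outside the named classes, COL25A1 reached 119 CPM in a cluster of 2174 nuclei.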

How the results depend on the processing

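The 144 higher calls of the main test remained at 142 with DESeq2, 142 with DESeq2's size factors, 144 without the filter on low counts and 129 with limma, an alternative chosen after seeing the data. Some settings lost classes: with only nuclei passing a marker gate, 11 classes were left, 57 of 60 comparable calls were kept, 40 new pairs were called higher and 87 pairs were called lower, against 131. Leaving out 1 goat gave 137 to 139 higher and 90 to 120 lower calls and 33 to 35 members higher in a class, and without Nubian replicate 1 COL6A5 in fibroblast-like nuclei, whose 25 UMIs all came from that goat, changed sign. Members with over 50% of their UMIs in 1 class numbered 2 to 3 without 1 goat and 0 with the marker gate. At least 10% of nuclei had a UMI in 96 pairs after thinning to 1000 UMIs, 54 after thinning to 500 and 157 without thinning. Between breeds, 17 pairs were called without the filter on low counts, 0 to 4 without 1 goat (3 without Du'an replicate 1, 4 without Nubian replicate 2) and 0 with the replicate block, where 37 were at an unadjusted p under 0.05, so the block changed no call. The goats' numbers do not pair them, and a pairing by number was run only as this block. The causes of these changes were not tested. Of the values for named pairs, 210 were on the same side of the threshold and 5 weaker without 1 goat, and 561 the same, 12 weaker and 3 stronger under the other settings, and none was reversed.

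The 2 goats of a breed, sums of 24 to 39 nuclei in some goats, free RNA and undetected doublets limit these values.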

Other observations

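Of the nuclei without a class name, 1 cluster of 4508 nuclei held COL4A4 at 428, 1196, 265 and 289.7 CPM and COL4A3 at 249, 1132, 295 and 133 CPM, below the granulosa-like level of the same goat for COL4A3 in every goat. A second cluster of 2174 nuclei held COL25A1 at 201, 115, 77.4 and 145 CPM, above the granulosa-like and blood endothelial-like levels of every goat. COL17A1 over all nuclei was at 0.17 CPM in Du'an replicate 2 and at 2.65 to 4.77 CPM in the other goats.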
